A study of Mus musculus with 4 samples.

Results

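The 9 genes described here mark the red blood cell lineage. They are Hba-a1 and Hbb-b1, which encode alpha and beta globin, Ahsp, which encodes a chaperone of free alpha globin, Alas2, Slc4a1, Car2, Klf1, Gata1 and Epor. They were found by gene name on the arrays, with Ahsp under its older name Eraf, and were measured by 13 of the 41174 probes, standing for 9 of 27670 genes. Hba-a1 had 2 probes, Hbb-b1 had 4 and each of the other 7 genes had 1. In the spleen, none of the 9 differed by 1.5-fold or more between the diets in the same direction on both arrays. In level, 7 of the 9 were brighter in every spleen channel than in every liver channel, by 1.17-fold for Gata1 to 9.61-fold for Slc4a1. The same held for 44.4% of the 18977 genes measurable in either organ.

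All mice were male C57BL/6J, 7 weeks old, and all received 1 injection of lipopolysaccharide, a bacterial envelope molecule that triggers inflammation throughout the body, at a dose of 10 mg/kg. Before that, the control group ate a low-nucleoprotein purified diet containing 0.03% nucleic acids for 4 weeks, and the nucleoprotein group ate it with 1.2% of a nucleoprotein product added, which brought nucleic acids to 0.5%. The housing notes name a standard chow instead, and the study design was followed here. Liver and spleen were taken 6 h after the injection, and RNA was pooled by diet. Each of the 4 arrays held both diet pools of 1 organ, with the nucleoprotein pool in Cy5 on the replicate 1 arrays and in Cy3 on the replicate 2 arrays. The labels do not say whether the pools numbered 1 and 2 were the same RNA, so the 2 arrays of an organ were taken as a dye swap of 1 pool per diet, no test was run on the main values, and the SD over 2 arrays covers labelling and array error. The number of mice per pool is not given in the sources used here, and mice without lipopolysaccharide were not analysed here. In RNA of a whole organ, fewer cells of a type and less RNA per cell cannot be told apart.

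Red blood cells form from progenitors that depend on erythropoietin and its receptor, encoded by Epor. The transcription factors encoded by Gata1 and Klf1 then switch on the globins, the heme enzymes and the red cell membrane proteins. In the adult mouse the spleen is a site of red cell production beside the bone marrow, above all under stress, and its red pulp also stores and clears red cells. The adult liver makes few red cells but holds blood.

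The depth of an array is its signal over background. Between 55.2% and 66.8% of the gene spots were well above background in the green channel and between 66.5% and 72.8% in the red. All 13 probes of the 9 genes were well above background in all 8 channels, and 0 gene spots were saturated. The organ labels were borne out by marker lists. All 11 measurable B cell markers were brighter in every spleen channel than in every liver channel, against 44.4% of all genes. All 19 hepatocyte markers were dimmer, by a median of 7.58 on the log2 scale, against 35.7% of all genes. Of 12 T cell markers, 9 were brighter in every spleen channel and 2 dimmer.

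The globin probes are shown because the probes of Hbb-b1 gave different organ differences, described below. Each is 60 bases long and is written 5′ to 3′ as the files give it. In the Hba-a1 pair, 30 bases of the probes align and 27 of them are equal. The capitals mark the 3 differing bases, which are C7T, T19C and T22C, with the base of probe 1 first and positions counted from 1 at its 5′ end.
Hba-a1 probe 1: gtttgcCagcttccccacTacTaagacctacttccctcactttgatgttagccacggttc
Hba-a1 probe 2: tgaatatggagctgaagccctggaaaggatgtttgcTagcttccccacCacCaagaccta
Probe 1 lies at chr11:32235937-32235996 and probe 2 at chr11:32235785-32235966 on the plus strand of mouse build mm7, so the stretches they read overlap and they are not independent readings.

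Of the 4 Hbb-b1 probes, probes 1 and 3 share 29 bases, shown in capitals, and probe 4 shares no bases with them in this way.
Hbb-b1 probe 1: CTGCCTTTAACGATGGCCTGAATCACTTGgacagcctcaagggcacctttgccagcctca
Hbb-b1 probe 3: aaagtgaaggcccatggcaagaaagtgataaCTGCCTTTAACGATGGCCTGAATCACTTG
Hbb-b1 probe 4: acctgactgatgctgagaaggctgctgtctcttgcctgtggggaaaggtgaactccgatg
They lie on the minus strand of chromosome 7 of mm7, probe 1 at chr7:99864305-99864363, probe 2 at chr7:99863416-99863476, probe 3 at chr7:99864335-99864394 and probe 4 at chr7:99864621-99864680. In the RefSeq table used for names (GRCm38.p6), the transcript that the files give for these probes now belongs to Hbb-bt, and probes 2 and 4 also list the transcript now called Hbb-b2. The files' name Hbb-b1 is kept here, and how much of a signal came from each of these near-identical adult beta globin genes cannot be told apart. The Ahsp probe, which has no position in the files, reads a stretch of the chaperone's transcript.
Ahsp probe: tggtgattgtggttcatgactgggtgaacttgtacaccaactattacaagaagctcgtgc
The single probes of the other genes lie at chrX:145329125-145329184 (Alas2), chr8:83491092-83491151 (Klf1), chrX:6392873-6392932 (Gata1), chr9:21837376-21837435 (Epor), chr11:102457981-102458040 (Slc4a1) and chr3:14921801-14921860 (Car2) of the same build. Exon and UTR annotation of that build was not used here.

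The first question is how the 9 genes stand in spleen and in liver. Levels are log2 intensities of single channels after scaling between arrays, and a level of 1 gene is not set against that of another, because probes bind with different efficiency. Beside the 7 of 9 genes whose 4 spleen channels all lay above their 4 liver channels, 44.4% of the 18977 genes measurable in either organ did so and 35.7% lay the other way. By 2-fold or more in mean level, 6 of the 9 were higher in spleen, against 19.6% of all genes. The median difference of the 9 was 1.48 on the log2 scale and that of all genes 0.089.

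**Figure D1:**
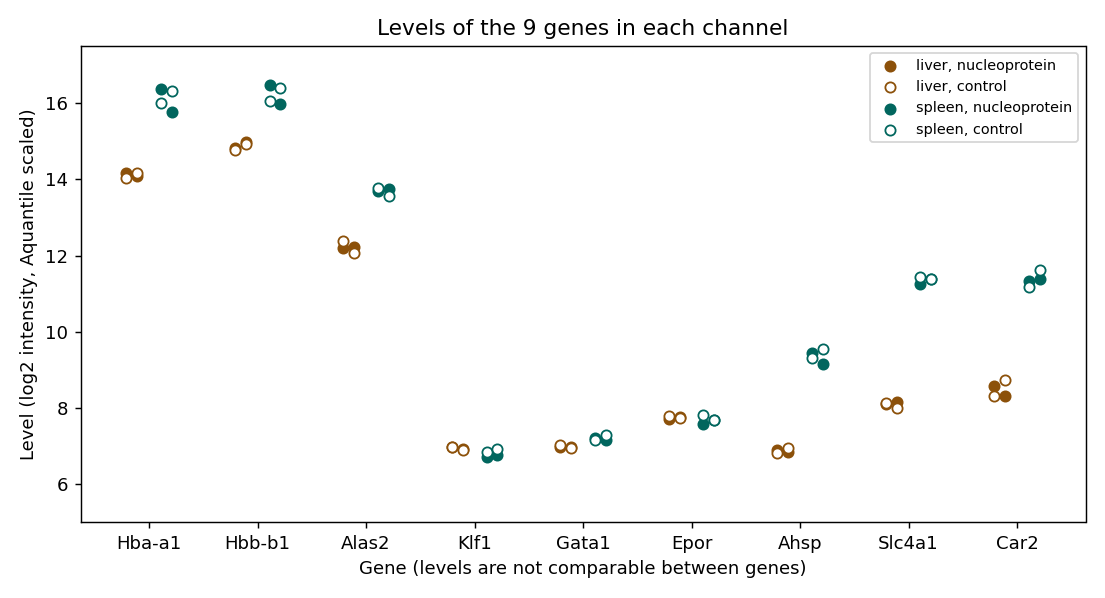
Level of each of the 9 genes (vertical axis, log2 intensity after Aquantile scaling) in each of the 8 channels, with filled points for the nucleoprotein pools and open points for the control pools. The spleen points lie above the liver points for 7 genes, while those of Klf1 and Epor overlap.

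Hba-a1 read 16.36 and 15.76 in the nucleoprotein channels of spleen replicates 1 and 2 and 16.004 and 16.305 in the control channels. In liver it read 14.16 and 14.09 on nucleoprotein and 14.04 and 14.16 on control. Every spleen value was thus above every liver value, and the diets overlapped within both organs. The difference in mean level was 1.99, or 3.98-fold, and probe 2 gave 1.99 as well.

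Hbb-b1 (probe 1) read 16.48 and 15.98 on nucleoprotein and 16.05 and 16.39 on control in spleen. Its liver values were 14.83 and 14.99 on nucleoprotein and 14.76 and 14.93 on control. The organs did not overlap, and the difference was 1.35, or 2.55-fold. The 4 probes of this gene did not give the same organ difference. Probe 3, which shares 29 bases with probe 1, gave 1.67 and probe 2 gave 2.11, while probe 4 gave 3.55, or 11.7-fold. The liver channels of probe 4 read 11.89 to 12.00. The beta globin difference thus kept its direction over the 4 probes and varied in size. With the scanner software's own processed signals in place of these levels, the difference of Hba-a1 was 1.01 and that of Hbb-b1 0.42, the same direction with a smaller size.

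Ahsp read 9.44 and 9.14 on nucleoprotein and 9.31 and 9.55 on control in spleen. In liver all 4 channels lay between 6.82 and 6.95. The difference was 2.48, or 5.58-fold, and larger than the spread of either organ's channels. It was 3.80 with the scanner software's signals.

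Alas2 encodes the erythroid form of the enzyme that starts heme synthesis. It read 13.70 and 13.75 on nucleoprotein and 13.77 and 13.57 on control in spleen. In liver the values were 12.21 and 12.23 on nucleoprotein and 12.38 and 12.07 on control. The organs stood apart by 1.48, or 2.78-fold, and the diets overlapped in both. The difference was 0.80 with the scanner software's signals. Alas1, the form of the same enzyme found in all tissues, lay the other way, 7.17-fold lower in spleen.

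Slc4a1 encodes band 3, the anion exchanger of the red cell membrane. It read 11.24 and 11.39 on nucleoprotein and 11.43 and 11.40 on control in spleen and between 8.00 and 8.15 in liver. The difference was 3.27, or 9.61-fold, larger than that of any other of the 13 probes except Hbb-b1 probe 4, and 1.91% of all genes had a difference at least that large in this direction. Car2, a cytosolic carbonic anhydrase of red cells that other cell types also make, read 11.34 and 11.38 on nucleoprotein and 11.18 and 11.62 on control in spleen and between 8.31 and 8.73 in liver. Its difference was 2.90, or 7.44-fold.

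The 3 regulators had small or no organ differences. Klf1 read 6.70 and 6.77 on nucleoprotein and 6.85 and 6.93 on control in spleen, and 6.99, 6.93, 6.98 and 6.90 in the same order in liver. The organs overlapped, with a difference of -0.13. Gata1 lay between 7.16 and 7.29 in spleen and between 6.96 and 7.02 in liver, which did not overlap, with a difference of 0.22. Epor lay between 7.58 and 7.81 in spleen and between 7.72 and 7.78 in liver, which overlapped, with a difference of -0.065. These probes were dim: in the spleen the raw green signal was 89.5 and 87.4 for Klf1 on replicates 1 and 2, 114 and 113 for Gata1 and 179 and 160 for Epor, against 1942 and 1804 for Slc4a1. The offset of 50 that the background step adds makes differences of such dim probes smaller. Without scaling between arrays, Klf1 turned to 0.16 and Epor to 0.58, with the median of all genes at 0.44, and the scanner software's signals gave -0.32, 0.005 and, for Gata1, 0.53. No direction is therefore given for Klf1 and Epor.

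**Figure D2:**
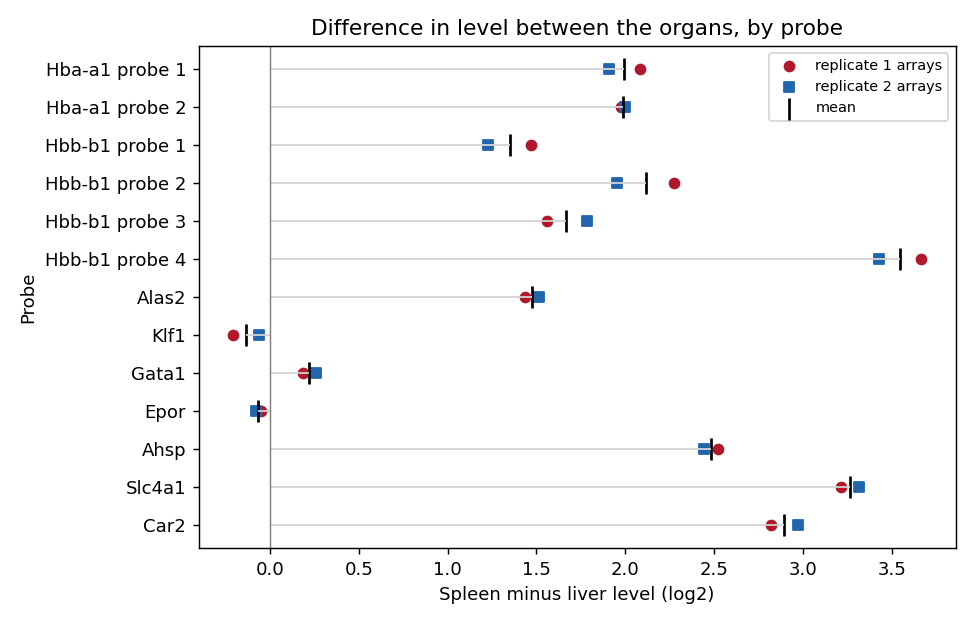
Spleen minus liver level (horizontal axis, log2) of each of the 13 probes, for the replicate 1 arrays, the replicate 2 arrays and their mean. The 4 Hbb-b1 probes spread from 1.35 to 3.55, and the Klf1, Gata1 and Epor probes lie near 0.

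The second question is whether the diet changed the 9 genes in the spleen. A gene counted as called when both arrays put it past 1.5-fold the same way, a log2 ratio of 0.58. By this rule 0 of the 9 genes were called, against 81 of 18151 measurable genes, or 0.446%. Of those, 39 (0.215% of all) were higher and 42 (0.231%) lower on nucleoprotein. At 1.2-fold it was still 0 of 9, against 1.27% of all genes. The median ratio of nucleoprotein over control was -0.093 over the 9 genes, 0.034 on replicate 1 and -0.157 on replicate 2, and -0.001 over all genes. Individual mean ratios ran from -0.153 for Klf1 to 0.054 for Alas2. Over all genes the 5th and 95th percentiles were -0.149 and 0.131, so Klf1 lay just outside them and the other 8 inside. The mean lay below 0 for 7 of the 9, but only 2, Klf1 and Slc4a1, kept 1 sign on both arrays. A difference under these bounds was not detectable with 2 arrays, which does not show that the diets were equal. Over all 18151 genes the ratios of the 2 spleen arrays correlated at 0.0601 (Pearson) and -0.247 (Spearman, on ranks). The arrays thus did not agree on the order of genes. Small means and counts below 0, here and in the lists that follow, are descriptions only.

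**Figure D3:**
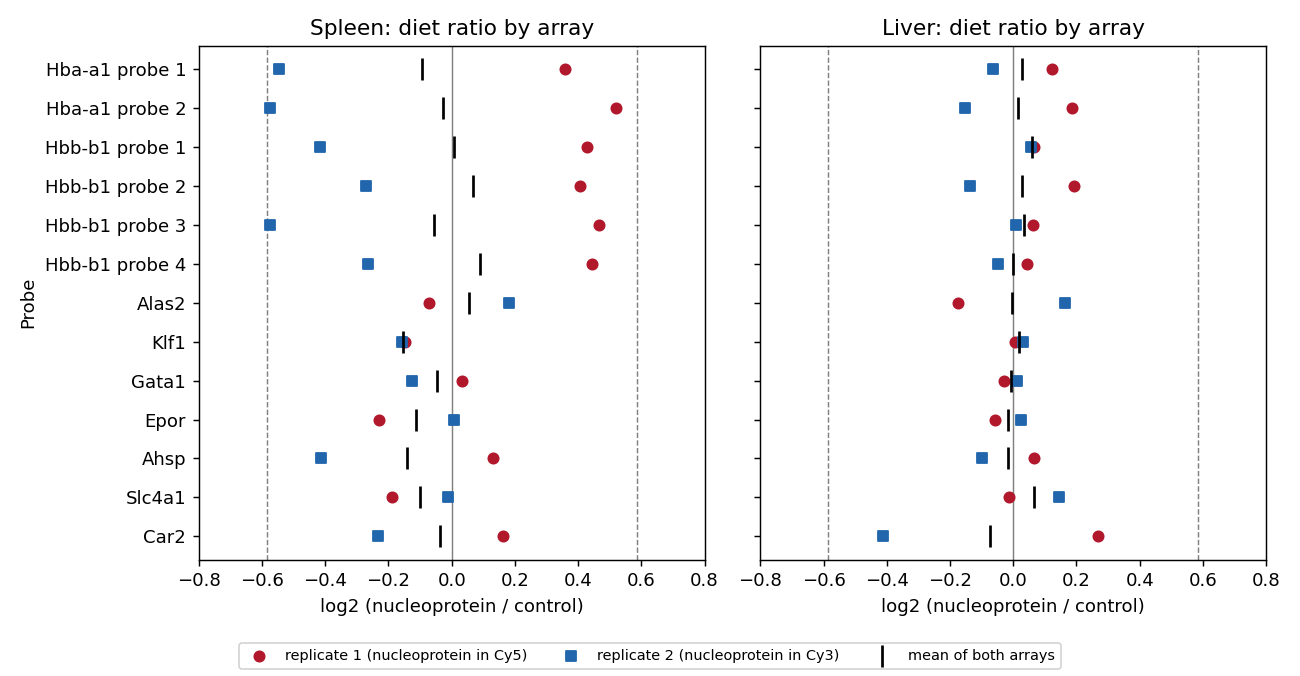
Diet ratio (horizontal axis, log2 of nucleoprotein over control) of each of the 13 probes on the replicate 1 array (circles), the replicate 2 array (squares) and as their mean (bars), with dashed lines at 1.5-fold. In spleen all 6 globin probes lie right of 0 on replicate 1 and left of 0 on replicate 2, and the means lie close to 0.

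Of the 9 genes, the globins were those for which the 2 spleen arrays differed most. Hba-a1 read 0.36 on replicate 1 and -0.55 on replicate 2, a mean of -0.093 ± 0.64 (SD, n = 2 arrays). Probe 2 read 0.52 and -0.58, a mean of -0.027. Hbb-b1 read 0.43 and -0.42, a mean of 0.006 ± 0.60, and its other probes had means of 0.068, -0.055 and 0.089. All 6 globin probes were thus above 0 where nucleoprotein was in Cy5 and below 0 where it was in Cy3. Ahsp followed the same order, with 0.13 and -0.41, a mean of -0.14 ± 0.38.

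A replicate read alone would have put the globins higher (replicate 1) or lower (replicate 2) on nucleoprotein. The difference between the arrays divided by 2, which holds any Cy5 over Cy3 effect and any difference between pools, was 0.45 for Hba-a1 and 0.42 for Hbb-b1. In the spleen 0.226% and 0.336% of all genes had one at least this large with the same sign, and those with the other sign were not counted. Of the 9 genes, 2, these globins, passed 1.2-fold in opposite directions, against 1.48% of all genes. In liver the same quantity was 0.093 and 0.005. Its size depended on the normalization: with each array only centred on its median it was 1.78 in spleen for both globins and 1.79 in liver for both, and with the scanner software's ratios it was 0.24 and 0.11 in spleen. The spleen mean stayed between -0.093 and -0.039 for Hba-a1 and between 0.006 and 0.073 for Hbb-b1 over all alternatives that keep both arrays. The globin spots reached at most 31.1% of the red saturation value. On the spleen arrays 3 probes were brighter than Hba-a1 probe 1 and 0 were brighter than Hbb-b1 probe 1, so the loess curve had few spots beside them. The part of this in the array difference was not tested.

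**Figure D4:**
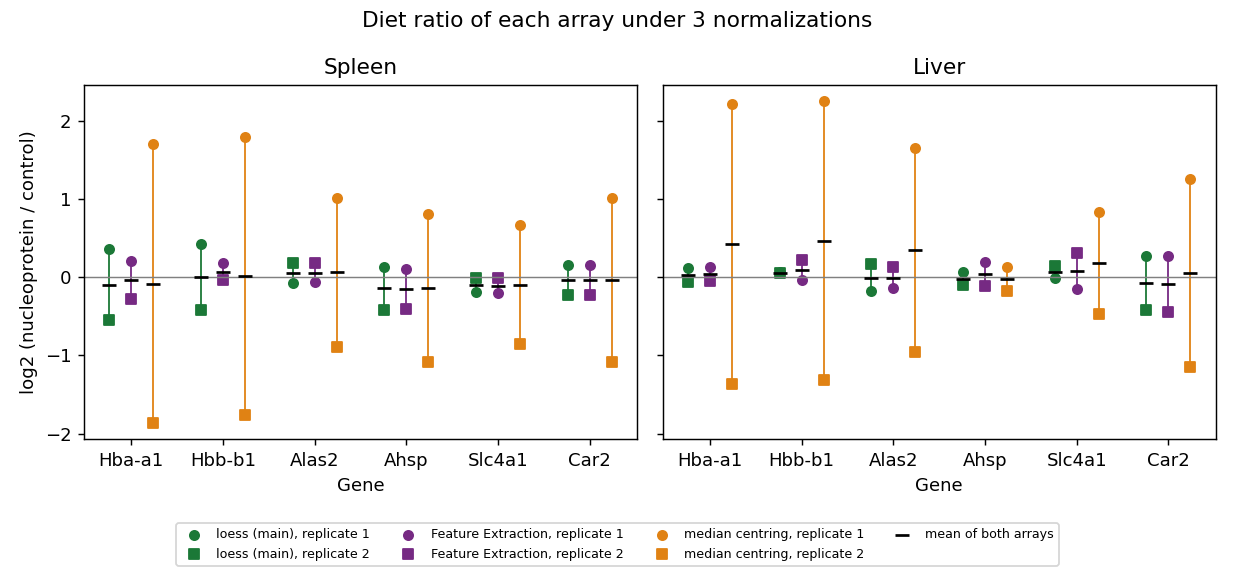
Diet ratio (vertical axis, log2 of nucleoprotein over control) of 6 of the genes on replicate 1 (circles) and replicate 2 (squares) under loess, the scanner software's ratios and median centring, with the mean as a bar. Under median centring Hbb-b1 in spleen reads 1.80 and -1.77, and the spleen means stay close to 0 under all 3.

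Among the genes of heme, membrane and enzymes, Alas2 read -0.072 and 0.18, a mean of 0.054 ± 0.18. Slc4a1 read -0.19 and -0.011, a mean of -0.10 ± 0.13. Car2 read 0.16 and -0.23, a mean of -0.036 ± 0.28. The SD exceeded the size of the mean in each case, but it also holds any dye effect, which the swap balances in the mean.

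Of the regulators, Klf1 was the gene whose arrays lay closest, at -0.149 and -0.157, a mean of -0.153 ± 0.006, or 1.11-fold lower on nucleoprotein. Its dim probe had 1 spot per array. Probes with 10 spots or more had a median SD between spots of 0.074 and 0.076 within the spleen arrays. The SD of 0.006 lies far below that and is not a measure of precision. The size of the Klf1 ratio depended on how background was removed, with -0.24 at an offset of 10 and -0.31 from the scanner software's ratios. It was always below 0, on the same 2 arrays. Gata1, whose probe was printed in 10 spots on each array, read 0.034 and -0.13, a mean of -0.046 ± 0.11, and the spots within an array had SDs of 0.076 and 0.078. Epor read -0.23 and 0.006, a mean of -0.11 ± 0.17.

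In liver, 0 of the 9 genes were called either, against 53 of 16407 genes, or 0.323%, of which 2 (0.0122% of all) were higher and 51 (0.311%) lower. At 1.2-fold it was 0 of 9, against 0.975%. The median ratio was -0.004, with 0.007 on replicate 1 and 0.024 on replicate 2, and 0.015 over all genes. Over all 16407 genes the ratios of the 2 liver arrays correlated at 0.102 (Pearson) and -0.482 (Spearman). Hbb-b1 read 0.065 and 0.055, Klf1 0.007 and 0.030, and the means of the 9 genes ran from -0.072 for Car2 to 0.067 for Slc4a1. Car2 read 0.27 and -0.41 and was the 1 gene of the 9 past 1.2-fold in opposite directions, against 7.88% of all genes. Under median centring all liver genes had a median ratio of 0.17, and the liver means of Hba-a1, Hbb-b1 and Alas2 were 0.43, 0.47 and 0.35.

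If the 2 arrays of an organ held separate pools, a test over them would be possible. With limma fitted across all probes and Benjamini-Hochberg adjustment, 0 of the 9 genes passed 0.05 in spleen and 0 in liver, against 27 and 32 of all genes. At an unadjusted p under 0.05, 1 of the 9 passed in spleen (Klf1) and 0 in liver, against 657 of 18151 and 623 of 16407 of all genes.

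The wider red cell programme was read through 7 further lists, whose genes are not all specific to red cells. The part of other cells in their ratios and levels was not tested. No gene of the first 6 lists passed 1.5-fold on both arrays in either organ. Of the other globins, 4 of 5 on the arrays were measurable in spleen, with a median of -0.056. Hbb-y, an embryonic beta-like globin, read 0.16 and -0.45, in the same order over the 2 arrays as the adult globins. Hbb-bh1, also embryonic, had a mean of -0.050 ± 0.12, and the theta globins Hbq1a and Hbq1b had 0.020 and -0.062. In level 3 of the 4 were above liver in every channel, against 44.4% of all genes.

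Of 13 heme synthesis genes, 7 lay below 0 in spleen, with a median of -0.009. Means were -0.10 ± 0.15 for Alas1 and -0.10 ± 0.078 for Cpox, an enzyme of the later steps, while Uros had 0.062, Urod 0.020 and Slc25a37, the mitochondrial iron importer of red cell precursors, -0.045. In level 11 of the 13 were dimmer in every spleen channel than in every liver channel, unlike Alas2, against 35.7% of all genes. Slc25a37 was 5.55-fold higher in spleen.

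Of 23 measurable red cell membrane and cytoskeleton genes, 15 lay below 0, with a median of -0.022. Aqp1, the water channel of red cells and of vessel walls, had the lowest value, with -0.33 and -0.24, a mean of -0.28 ± 0.067. Epb42, which links band 3 to the cytoskeleton, had -0.12, Gypc, a glycophorin, had -0.061, and Cd47 and Tmcc2 had 0.037 and 0.12. In level 17 of the 23, among them Gypc at 12.3-fold, were above liver in every channel and 4 below. The shares of all genes were 44.4% and 35.7%.

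Of 14 measurable transcription factors and cofactors, 9 lay below 0, with a median of -0.042. Gfi1b, a repressor needed for red cell and platelet formation, read -0.18 and -0.35, a mean of -0.27 ± 0.12. Tal1, a partner of Gata1, read -0.11 and -0.18, and Gata2, which precedes Gata1 in progenitors, 0.099 and -0.40. Lyl1 had -0.11 and Zfpm1, the Gata1 cofactor, 0.083. In level 11 of the 14 were above liver in every channel, unlike Klf1, against 44.4% of all genes, with Lyl1 at 19.3-fold. Another 2 were below, against 35.7%.

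Of 14 measurable genes of erythropoietin signalling, 8 lay above 0, with a median of 0.004. Socs3, a feedback inhibitor of cytokine receptors, read 0.22 and 0.18, and Pim1, a kinase induced by the same receptors, 0.15 and 0.18. The adaptor Sh2b3 had a mean of 0.13 and the kinase Lyn -0.045. In level 9 of the 14 were above liver in every channel and 3 below, against 44.4% and 35.7% of all genes.

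Of 22 red cell enzymes and late maturation genes, 19 lay below 0, with a median of -0.076 (-0.016 on replicate 1 and -0.107 on replicate 2). Car1, a second carbonic anhydrase of red cells, read -0.17 and -0.13, catalase (Cat) -0.15 and -0.14, and Selenbp1 -0.24 and -0.081. Prdx2 and Gpx1, which remove peroxides, had -0.093 and -0.050. Many of these genes are also liver genes: Cat was 16.7-fold and Selenbp1 48.9-fold lower in spleen than in liver. In level 8 of the 22 were above liver in every channel and 9 below, against 44.4% and 35.7% of all genes.

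The iron list held the only gene called. Hpx, the plasma heme scavenger made by hepatocytes, read 1.43 and 1.19 in spleen, a mean of 1.31 ± 0.17, and its spleen level was 307-fold below that of liver. Hamp, the liver hormone that blocks iron export, read 0.77 and 0.18 and was not called. Slc40a1, the iron exporter of red pulp macrophages, had -0.17 ± 0.043, and the ferritin chains Fth1 and Ftl1 had -0.011 ± 0.77 and -0.11 ± 0.24. The median of the 18 genes measurable in spleen was -0.004. In level, 18 genes of the list were measurable in either organ with values on all arrays. Of these, 4 were above liver in every channel and 12 below, against 44.4% and 35.7% of all genes.

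**Figure D5:**
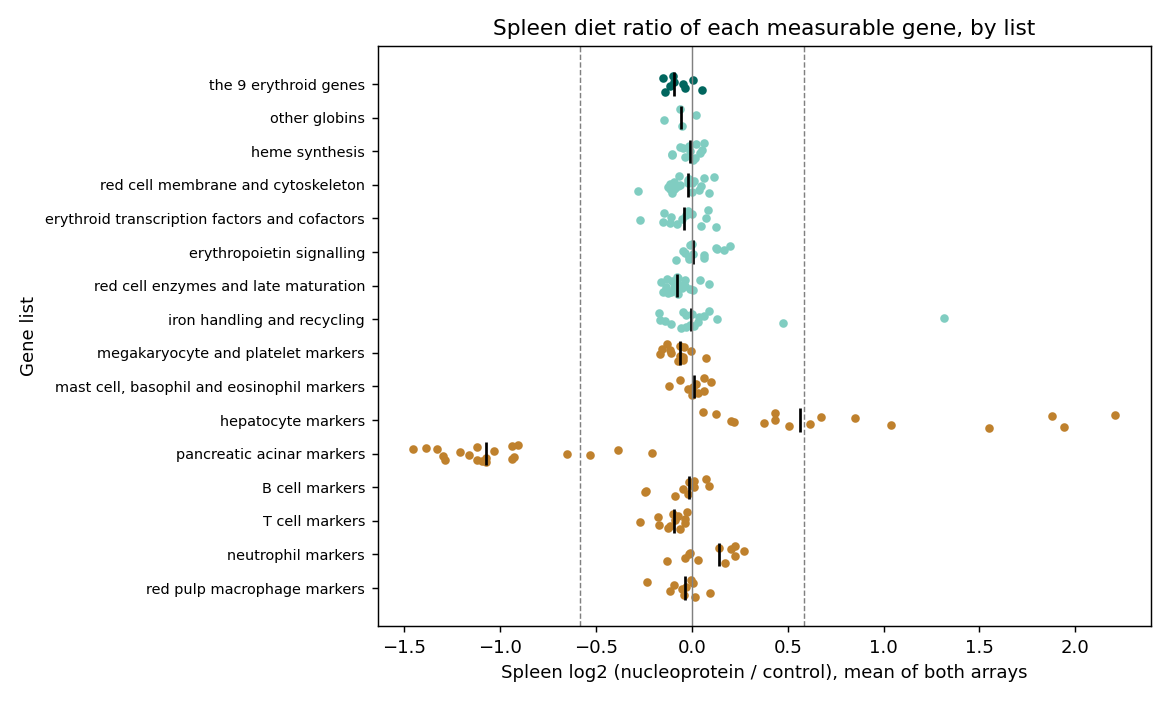
Mean diet ratio in spleen (horizontal axis, log2 of nucleoprotein over control) of each measurable gene by list, with a black bar at each list's median and dashed lines at 1.5-fold. The erythroid lists lie close to 0, with Hpx as the exception at 1.31, while hepatocyte markers lie to the right and pancreatic acinar markers to the left.

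Markers of other cells differed by diet in the same spleen pools. Of 19 hepatocyte markers on the arrays 16 were measurable, and all of these lay above 0, with a median of 0.56, and 7 were called higher: Alb, Apoa2, Ahsg, Fgb, Fgg, Fga and F2. The summed level of the list (log2 of the summed intensities) was 12.34 and 12.30 on nucleoprotein and 11.10 and 11.01 on control. All 21 pancreatic acinar markers lay below 0, with a median of -1.08, and 17 were called lower. Among them were the digestive enzyme genes Cel, Cela2a, Cela3b and Pnlip and the lipase cofactor gene Clps, and the list had a summed level of 13.46 and 13.44 on nucleoprotein and 14.60 and 14.61 on control. Among blood cells, 12 of 13 megakaryocyte and platelet markers lay below 0, with a median of -0.063 (-0.108 on replicate 1 and 0.006 on replicate 2). All 12 T cell markers lay below 0, with a median of -0.094 (-0.053 and -0.155). B cell, red pulp macrophage and mast cell, basophil and eosinophil markers had medians of -0.015, -0.035 and 0.013. Neutrophil markers had 0.14. The share of all genes below 0 is not given here. None of the genes in these 6 lists was called, and the part of these cells in the values of the 9 erythroid genes was not tested.

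The genes with a pattern most like that of the 9 were looked for over 4 pools, by the distance of each gene's centred levels from the median of the 9. Dhx30, Ing5, Plcb2, Obi1 and Ppp1r12c were nearest, at distances of 0.020 to 0.029 on the log2 scale, and 1840 of 12660 genes lay within 0.5. With 4 pools, the pattern is mainly 1 step between organs, so this likeness is not specific.

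Promoters are shown for 3 of the genes because Gata1 and Klf1, both among the 9, encode factors known to bind GATA and CACCC words. RefSeq promoters of GRCm38.p6 were at hand for 6: Hba-a1, Alas2, Klf1, Gata1, Epor and, for the beta globin transcript, Hbb-bt. They reach from 250 bases before to 50 after the start. The bases before the start are printed 5′ to 3′, with the words in capitals, for alpha globin and Alas2, which were higher in spleen, and for Epor, which was not.
Hba-a1 promoter: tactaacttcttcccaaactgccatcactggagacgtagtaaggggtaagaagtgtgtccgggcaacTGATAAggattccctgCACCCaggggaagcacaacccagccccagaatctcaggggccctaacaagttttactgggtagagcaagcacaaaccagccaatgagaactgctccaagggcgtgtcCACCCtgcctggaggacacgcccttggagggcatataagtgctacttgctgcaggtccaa
Alas2 promoter: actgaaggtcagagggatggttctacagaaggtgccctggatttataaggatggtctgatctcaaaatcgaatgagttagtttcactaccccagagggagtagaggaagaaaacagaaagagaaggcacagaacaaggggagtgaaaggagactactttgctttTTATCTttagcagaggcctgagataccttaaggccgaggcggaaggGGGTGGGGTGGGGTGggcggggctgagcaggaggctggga
Epor promoter: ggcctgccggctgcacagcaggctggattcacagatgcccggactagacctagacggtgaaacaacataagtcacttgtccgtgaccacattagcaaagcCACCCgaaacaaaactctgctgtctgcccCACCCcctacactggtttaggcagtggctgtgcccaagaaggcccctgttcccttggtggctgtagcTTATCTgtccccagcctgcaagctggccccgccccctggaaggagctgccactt
They lie at chr11:32283422-32283671 (plus strand), chrX:150547167-150547416 (plus strand) and chr9:21963577-21963826 (minus strand). A GATA word (AGATAA or AGATAG, or the same with T in place of the first A, on either strand) was found in 4 of the 6, at -183 in Hba-a1, -86 in Alas2, -80 in Klf1 and -54 in Epor, against 29.8% of 32851 promoters of the same length. CACCC on either strand was found in 6 of 6, against 57.5%. These matches are descriptions of letters, and Epor, which did not differ between the organs beyond its spread, carries both words as the other 2 do.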

How the data were processed

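RNA of 2 diet pools per organ was labelled in Cy3 and Cy5 and hybridised to 4 Agilent whole-genome arrays of 1 slide. Per the submitters' processing notes, the software behind the scanner files was Agilent Feature Extraction 9.5.3.1. Per the file headers, the deposited files hold mean and background intensity per channel, processed intensity, and the log10 ratio of red over green. The authors' deposited value table, a score here, equals red over green within 0.02 log2 units for at least 99.85% of the spots compared, with a minus sign on every replicate 1 value whose purpose is not stated. Its column medians were -0.92, 0.92, -0.96 and 0.96.

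Background was corrected by normexp (offset 50), and ratios were normalized by loess within arrays with limma 3.58.1 in R 4.3.3. Control spots and 189 to 354 outlier spots per array had no weight. Ratios were turned to nucleoprotein over control, spots of a probe were averaged, and channel levels were scaled by Aquantile. A gene was read by its brightest probe. It was measurable if, in 1 diet or more, both arrays had it well above background, and called when past 1.5-fold in the same direction on both. The call was tested on simulated data with a smooth dye curve, independent noise and no dye effect of single probes. That test therefore does not cover such effects.

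The 9 genes and all lists were chosen with earlier results of these data known. Named from the erythroid lists are genes called, the 2 brightest in spleen and up to 3 with the largest spleen ratio; from the other lists, genes called, of which some are not reported here; and the 5 genes nearest in pattern. Alternatives covered background, normalization, filters, probe choice, scaling, single arrays and limma with the arrays as separate pools. Precision is limited by the number of arrays.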

Additional observations from a re-analysis of the deposited data

Results flagged for a closer look

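Among the 9 erythroid genes and the genes named from the erythroid lists, there were 6 for which the diet ratio had 1 sign on both spleen arrays and the opposite sign on both liver arrays. The difference was not tested for any of them, and none of the 6 was past 1.5-fold in either organ. Among the 9 erythroid genes this held for Klf1, with -0.153 in spleen and 0.018 in liver, a difference of -0.171. Among the genes named from the lists it held for Cpox (-0.104 and 0.224, a difference of -0.328), Aqp1 (-0.283 and 0.047, a difference of -0.33), Tal1 (-0.144 and 0.016, a difference of -0.16) and Car1 (-0.15 and 0.038, a difference of -0.188). Tmcc2 lay the other way, with 0.116 in spleen and -0.035 in liver, a difference of 0.151. Over the 9 genes and all genes of the erythroid lists, 10 of the 98 genes measurable in both organs had this pattern, and the 4 not named above were Bach1, Blvrb, E2f2 and Pklr, a red cell and liver pyruvate kinase gene with 0.087 in spleen and -0.649 in liver. These 4 were named after their values were seen. The share of all genes with this pattern is not given here, so neither count is read as a trait of the erythroid genes.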

How the results depend on the processing

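The count of erythroid genes called stayed at 0 of 9 in both organs under every alternative run. Values near 0 that were not called changed sign in places, among them the organ difference of Klf1 (-0.13 to 0.16) and Epor (-0.065 to 0.58) with no scaling between arrays, and the medians given next. With the arrays as separate pools, limma with the replicate number as a replicate block (here the dye orientation) called 0 of the 9 in spleen and 0 in liver, against 55 and 47 of all genes (27 and 32 without it), with the lowest adjusted p among the 9 at 0.879 for Klf1 and 0.976 for Slc4a1 (at an unadjusted p under 0.05, 1 and 0, against 1031 of 18151 and 1069 of 16407 of all genes); the numbers are not known to pair samples. The median liver ratio of the 9 moved to 0.064 under median centring, with all liver genes then at 0.171, to 0.008 in the authors' table, and from 0.007 to 0.024 with 1 array left out. In spleen, 1 array alone gave -0.157 to 0.034. Genes called in spleen were 81 in the main setting, 40 under median centring (30 higher and 10 lower), 121 at an offset of 10, 183 from Feature Extraction ratios (102 higher) and 181 from the authors' table, 146 and 117 without replicate 1 and 2, and 230 at 1.2-fold. In liver they were 53 in the main setting, 32 under median centring, 134 from Feature Extraction ratios (28 higher), 134 from the authors' table, 289 and 294 without replicate 1 and 2, and 160 at 1.2-fold. Of single-gene diet ratios, 5 of 90 in spleen and 15 of 90 in liver moved by more than the SD over the 2 arrays. These counts say little about stability, because many of the values could not move. A single array always lies within that SD of the mean, and the filters on dim probes left all 9 genes in. Averaging probes does not alter a gene with 1 probe. Of the organ differences, 17 of 54 moved by more than the pooled SD over the channels of each organ. Brighter in spleen were 7 of 9 in the main setting, against 44.4% of all genes, and 8 with no scaling, against 53.8%. The median organ difference of all genes was 0.089 in the main setting and 0.438 with no scaling. All arrays shared 1 slide, so slide as a block was not run. The probes of Klf1, Gata1 and Epor were dim.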

Other observations

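The ferritin heavy chain gene Fth1 showed in both organs the opposition between the arrays that the globins showed in spleen. In liver Hba-a1 read only 0.12 and -0.064, and Hbb-b1 read 0.065 and 0.055. In spleen it read 0.53 on replicate 1 and -0.55 on replicate 2, and in liver 0.34 and -0.37. Catalase (Cat) read 0.79 and -0.69 in liver, where it was bright, and -0.15 and -0.14 in spleen. Hamp read 1.03 and -1.09 in liver and 0.77 and 0.18 in spleen. Of all measurable genes, 7.88% in liver and 1.48% in spleen passed 1.2-fold in opposite directions on the 2 arrays.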
